A study of Mus musculus with 18 samples.

Results

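Cultured smooth muscle cells from mouse thoracic aorta were compared after an siRNA against Itgav and after a scramble siRNA, with no stimulus added. The comparison takes 6 of the 18 libraries of the series, identified by their labels, and covers every gene measured. The tested libraries are 3 that received the Itgav siRNA (replicates 1 to 3) and the controls are 3 that received the scramble siRNA (replicates 1 to 3). All cells came from C57BL/6 mice, all had been transfected, and total RNA was sequenced in bulk. The other 12 libraries, given TGF-β or PDGF-BB after the same siRNAs, enter here through the shared fit and a comparison near the end. The sources used here give no siRNA sequence, dose, culture time or age of the mice. The labels name a single Itgav siRNA, so loss of Itgav cannot be told apart from other effects of that siRNA. Whether the 3 libraries of a group came from separate cultures is not stated, and the p-values cover only the spread among them, which could be technical.

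Itgav encodes integrin αV, which pairs with integrin β chains to bind matrix proteins that carry an RGD sequence and the latent complex of TGF-β. Bound integrins gather talin, kindlin, vinculin and α-actinin into focal adhesions, which link the matrix to the actin of the contractile apparatus. In arterial smooth muscle these contacts are known to feed into SRF and YAP, transcription regulators of contractile, cytoskeletal and growth genes. Double-stranded RNA is also known to be sensed by cells as a sign of virus, and interferon genes are therefore described in their own right.

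The 6 libraries held 18139857 to 21592916 estimated counts, with 20391 to 21304 genes at a count above 0. Of 57180 genes in the deposited table, 15832 passed the low-count filter and were tested. Levels are given as CPM (counts per 1000000). The sign ± marks an SD over 3 libraries after a mean CPM and a standard error after any log2 value. The first principal component of the 6 libraries held 68.7% of their variance and placed the siRNA libraries at 43.5 to 46.7 and the scramble libraries at -49.0 to -42.3. Replicates differed from each other by more than counting noise in every pair (chi-square over degrees of freedom 2.2 to 6.27).

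At an adjusted p under 0.05, 8457 genes differed, which is 53.4% of those tested. Of these, 4108 were higher (25.9%) and 4349 lower (27.5%) with the Itgav siRNA. A change of at least 2-fold was found for 1644 genes (10.4%), of which 1024 were higher (6.47%) and 620 lower (3.92%). Larger changes were thus more often upward, while the median log2 fold change of all genes was 0.0079. Among protein-coding genes 3650 of 13496 were higher and 4131 lower, and among long non-coding RNA genes 271 of 1379 were higher and 123 lower. Of the 1024 genes higher by at least 2-fold, 97 (9.47%) belong to the 6 lists of interferon-regulated and antigen presentation genes described below, and 927 do not. The lists are partial, and genes not on them include others known to respond to interferon, so 9.47% is not the share of interferon-responsive genes.

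**Figure D1:**
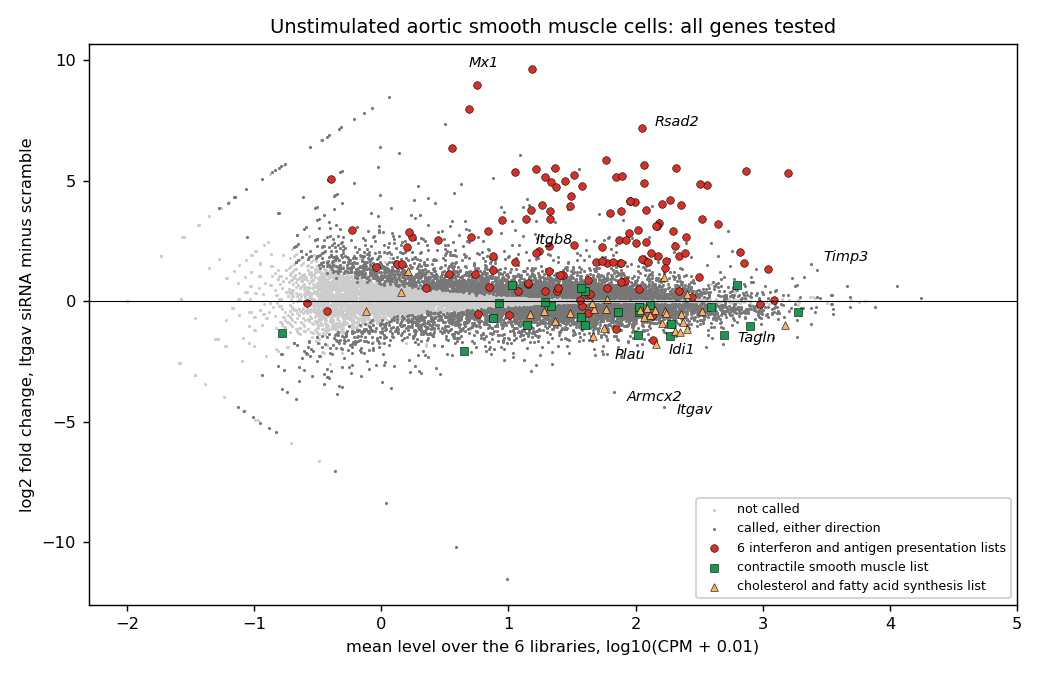
Change against level for all 15832 genes tested. The horizontal axis is the log10 of the mean CPM over the 6 unstimulated libraries plus 0.01, the vertical axis is the log2 fold change (Itgav siRNA minus scramble), each point is a gene, and points on the slanted edges are genes at or near 0 counts in 1 group, whose fitted fold change is not a measured size. Genes of the interferon and antigen presentation lists reach a log2 fold change of 9.62, Itgav lies at -4.39, and genes of the contractile and cholesterol lists lie mostly below 0.

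The targeted gene was low in every siRNA library. Itgav (ENSMUSG00000027087, GRCm38 chromosome 2, 83724397 to 83806916, plus strand) had 14.8, 14.1 and 16.4 CPM in the siRNA libraries, against 300.2, 326 and 323 CPM in the scramble libraries. The groups were far apart, with 4.77% of the scramble level left (log2 fold change -4.39 ± 0.092, adjusted p = 4.05e-19). The 2 annotated transcripts that held nearly all of its counts were both reduced. ENSMUST00000111740, with 59.6% of the Itgav counts in scramble cells, was left at 4.99% of its scramble counts, and ENSMUST00000028499, with 38.4%, was left at 4.45%. These transcript values are the authors' estimates summed over 3 libraries and were not tested.

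Next to Itgav, the lowest fold change among genes that average 5 CPM or more, do not overlap between groups and carry an ordinary symbol belonged to Armcx2, an X-linked armadillo-repeat gene. Armcx2 had 9.77, 8.34 and 9.59 CPM in the siRNA libraries and 132, 125 and 123 CPM in the scramble libraries, a log2 fold change of -3.78 ± 0.062 (adjusted p = 6.89e-21). Every siRNA value lay far below every scramble value. Other genes among the 15 largest decreases had log2 fold changes from -2.92 to -2.20. Folh1, glutamate carboxypeptidase II, had 4.13, 3.82 and 2.59 CPM with the siRNA and 26.4, 27.5 and 25.7 CPM with scramble. Rbpms2, an RNA-binding protein of smooth muscle, had 4.62, 4.57 and 4.35 CPM with the siRNA and 29.2, 29.7 and 26.7 CPM with scramble. Snx7, a sorting nexin, had 24.4, 23.8 and 27.6 CPM with the siRNA and 127, 129.5 and 125 CPM with scramble. Absence of overlap was a condition for naming Armcx2 and these genes, and 61.4% of all genes tested did not overlap in either direction. Gnal, an olfactory-type G protein α subunit, changed by -2.60 ± 0.15, Ncald, a neuronal calcium sensor, by -2.45 ± 0.11 and Tspan2, a tetraspanin, by -2.22 ± 0.068. Susd2, Nat8l, Sh3bgr, Mmgt1, Crct1 and Rtn1 also belonged to this group, each between 4.58-fold and 5.41-fold lower. Pmaip1, which encodes the pro-apoptotic protein Noxa and is itself known as a gene that interferon and p53 can raise, fell by 2.26 on the log2 scale, with 27.1, 27.7 and 25.2 CPM in siRNA cells and 126, 132 and 125 CPM in scramble cells.

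Genes of the interferon response made up the largest increases. The pathway runs from RNA and DNA sensors, through the secreted interferons and their receptors, to transcription factors that include STAT2 and IRF9 and switch on the antiviral effectors. The genes of 6 lists were followed along it, and 115 of their genes were higher with the Itgav siRNA, by log2 fold changes of 0.18 to 9.62. Among all genes tested 25.9% were higher and 27.5% lower, the shares to set beside the counts of each list below. Of these 115 genes, 97 rose at least 2-fold and 47 at least 8-fold. The 2 groups did not overlap in 114 of the 115, which their selection as called genes largely fixes (61.4% of all genes tested did not overlap in either direction). Their summed level was 23250, 21640 and 24250 CPM in the siRNA libraries, against 3472, 4708 and 4551 CPM in the scramble libraries. That is 2.16% to 2.43% of all counts in siRNA cells and 0.347% to 0.471% in scramble cells. Scramble replicate 1 stood below the other scramble libraries here: 97 of the 115 genes (84.3%) were lowest in it, against 35.4% of all genes tested, and the mean of scramble replicates 2 and 3 was a median of 1.51 times its level. Without that library, 7754 genes were called in all and every named interferon gene except Irf3 kept its direction and call.

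**Figure D2:**
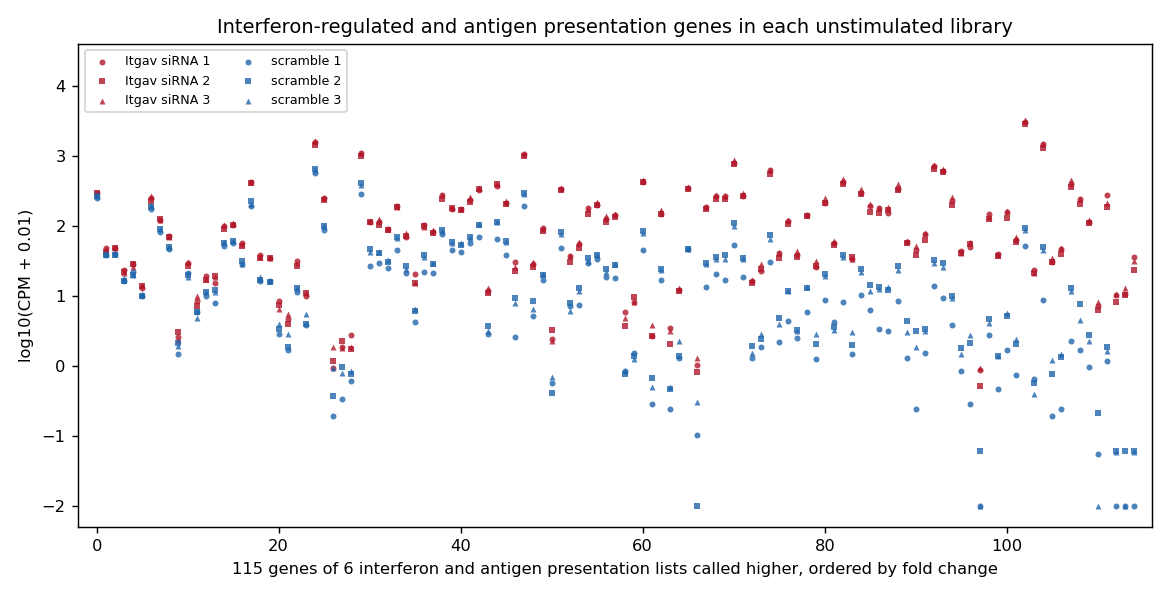
Levels of the 115 interferon-regulated and antigen presentation genes that were higher with the Itgav siRNA, in each of the 6 libraries. The horizontal axis orders the genes by fold change, the vertical axis is log10 of CPM plus 0.01, red symbols are the siRNA replicates and blue symbols the scramble replicates; the red symbols lie above the blue for 114 genes, and scramble replicate 1 is the lowest symbol for 97.

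The interferons themselves were near the limit of detection. Of 21 interferon genes listed, 2 passed the filter, of which 1 was called higher and 1 was not called. Ifnb1, interferon β, had 11, 12 and 19 counts in the siRNA libraries and 0, 1 and 0 counts in the scramble libraries, a ratio of 45.2 per library depth (95% counting interval 7.67 to 1.83e+03). It was detected in all 3 siRNA libraries and in 1 scramble library. Ifna2 had 0, 8 and 4 counts in the siRNA libraries, and no other interferon α gene of the list had more than 4 counts in all 3 siRNA libraries together. None of the interferon α genes had a count in scramble cells. Ifng, interferon γ, and the interferon λ genes Ifnl2 and Ifnl3 had no count in any of the 6 libraries. Counts of the interferon α family are uncertain because its genes are near copies of each other, and these intervals cover counting error only.

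Receptors and signal carriers moved in both directions, with 14 of 19 tested genes higher and 4 lower (median log2 fold change 1.07). Irf7, the regulator that amplifies interferon α genes, had 227, 196 and 255 CPM in siRNA cells and 3.85, 9.89 and 9.39 CPM in scramble cells. Its groups were separated without overlap, at 4.89 ± 0.21 on the log2 scale. Stat2 (2.65 ± 0.14) and Irf9 (1.57 ± 0.13), which act together downstream of the interferon receptors, also rose. Usp18, which removes ISG15 and restrains the receptor, rose by 4.15 ± 0.22, and Socs1, an inhibitor of JAK kinases, by 2.56 ± 0.23. The receptor chain Ifnar1 rose modestly (0.53 ± 0.048). The genes that fell were Ifngr1, the ligand-binding chain of the interferon γ receptor (-1.15 ± 0.054), Stat3 (-0.63 ± 0.048), Socs3 (-0.54 ± 0.14) and Irf3 (-0.21 ± 0.087). Irf3 lost its call without siRNA replicate 1 or 2 or scramble replicate 1 or 3 (adjusted p = 0.0682 to 0.207). Ifngr1 had 44.0, 42.1 and 44.4 CPM with the siRNA and 102, 94.7 and 92.2 CPM with scramble.

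Of 23 tested sensors of foreign RNA and DNA, 19 rose and 2 fell (median 2.26). Rigi and Ifih1, the cytosolic sensors RIG-I and MDA5, rose by 2.30 ± 0.12 and 2.97 ± 0.16. Tlr3, the endosomal receptor for double-stranded RNA, had 83.0, 79.9 and 87.0 CPM with the siRNA and 20.9, 28.8 and 29.4 CPM with scramble (1.66 ± 0.11). Zbp1, a sensor of Z-form nucleic acid, had 45.0, 39.0 and 51.5 CPM with the siRNA and 0.229, 3.10 and 1.84 CPM with scramble. Ddx60, a helicase that aids RIG-I, had 50.5, 54.3 and 58.1 CPM with the siRNA and 0.275, 2.13 and 2.76 CPM with scramble. Zbp1 and Ddx60 were low in all scramble libraries, and Tlr3, Zbp1 and Ddx60 were lowest in scramble replicate 1. Adaptors downstream of the sensors moved in both directions, and Ticam1 and Myd88 were called higher. Mavs, the adaptor of RIG-I and MDA5, was lower (-0.48 ± 0.060), and so was Sting1, the adaptor of cGAS (-0.57 ± 0.11, adjusted p = 8.77e-05). Cgas itself rose by 1.11 ± 0.18.

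Among 38 tested antiviral effectors (of 39 listed), 37 rose and 1 fell, with a median of 3.14. Ifit1, which binds foreign RNA ends, had 1477, 1316 and 1494 CPM in siRNA cells and 8.66, 49.8 and 44.7 CPM in scramble cells. Its scramble libraries differed from each other, replicate 1 being the lowest, yet all lay far below the siRNA libraries. Ifit2 had 353, 334 and 362 CPM in siRNA cells and 47.1, 46.6 and 46.7 CPM in scramble cells, and its 3 scramble values were nearly equal. Bst2 (tetherin) rose by 3.42 ± 0.21, Ifitm3, which blocks viral entry, by 1.56 ± 0.11, Eif2ak2, the kinase PKR, by 1.87 ± 0.10 and Adar, an RNA editing enzyme, by 1.73 ± 0.074. The oligoadenylate synthetase genes rose as a family, among them Oas1c by 1.88, Oas1b by 3.37 and Oas1a by 5.52. Oas1g and Oas3 rose as well and are given next as ratios, since their scramble counts were near 0. For 4 effectors scramble cells held 5 counts or fewer: Mx1 had 1750 counts in siRNA cells and 2 in scramble cells (ratio 941, 260 to 7.77e+03), and Oas1g had 655 and 1 (ratio 704, 126 to 2.79e+04). Oasl1 had 566 counts in siRNA cells and 2 in scramble cells (ratio 304, 83.8 to 2.52e+03), and Oas3 had 413 and 5 (ratio 88.8, 37.7 to 275). The deposited annotation gives Mx1 the type protein_coding_LoF (loss of function), and its RNA counts do not show that a working protein was made. Ifi27 was the exception, with 65.2, 75.4 and 64.9 CPM in siRNA cells and 191, 214 and 217 CPM in scramble cells (-1.60 ± 0.085); its neighbour in name, Ifi27l2a, rose by 2.07 ± 0.14. Reads of the Oas1, Ifit, Tgtp and Gbp families can be shared between near copies, so the split within each family is uncertain.

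All 15 tested interferon-induced GTPases rose (18 listed, median 3.75). They attack the membranes around intracellular pathogens. Gbp2 rose by 3.26 ± 0.17, Gbp3 by 4.21 ± 0.22, Irgm1 by 2.02 ± 0.11 and Igtp by 3.65 ± 0.20. All 12 tested genes of ISG15 conjugation and the Schlafen family rose as well (median 2.19). Isg15, the ubiquitin-like modifier, had 427, 395 and 469 CPM with the siRNA and 8.25, 38.0 and 35.4 CPM with scramble. Its conjugating enzymes rose too, by 2.35 ± 0.15 for Uba7, 2.54 ± 0.11 for Ube2l6 and 2.84 ± 0.13 for Herc6. Slfn8 rose by 4.78 ± 0.18 and Slfn5 by 1.63 ± 0.19.

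Genes of antigen presentation by MHC class I were higher for 20 of 22 and lower for 1 (median 1.94). Nlrc5, the transactivator of class I genes, rose by 3.39 ± 0.15. Tap1, a chain of the peptide transporter, had 92.3, 85.6 and 90.3 CPM with the siRNA and 16.7, 20.1 and 20.4 CPM with scramble. H2-K1, a classical heavy chain, had 178, 150.4 and 176 CPM with the siRNA and 29.1, 34.5 and 31.0 CPM with scramble. B2m, the shared light chain, had 1607, 1455 and 1621 CPM with the siRNA and 575, 642 and 627 CPM with scramble. Their groups did not overlap, with log2 fold changes of 2.23 ± 0.10, 2.42 ± 0.12 and 1.34 ± 0.069. The immunoproteasome subunits Psmb8, Psmb9 and Psmb10 rose by 3.42, 2.64 and 2.30, and the peptide trimming enzyme Erap1 by 1.60. Calr, a chaperone of the endoplasmic reticulum, was the gene that fell (-0.13 ± 0.033). Heavy chains of the H2 family share sequence and their split is uncertain.

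The promoter sequence shared by many of these genes could be read from RefSeq windows (GRCm38.p6) that run from 250 bases before to 50 after each start site. The core of the interferon-stimulated response element, GAAA, any 2 bases, GAAA, was searched on both strands. It was present for 46 of the 92 genes that had a window among the 115 called higher (50%), against 3.99% of all 27025 genes with a window, and in 42.9% of their windows against 3.44% of all 32851. Over all genes it was present for 5.34% of those called higher and 3.28% of those tested but not called. Stretches of 5 promoters with the core are shown to let its forms be compared, each 5′ to 3′ on the gene's strand with the matches in capitals (TTTC, any 2 bases, TTTC is the core on the opposite strand).
Rsad2 (chr12:26456538-26456597, minus strand): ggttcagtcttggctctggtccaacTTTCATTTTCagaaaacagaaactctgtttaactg
Ifit1 (chr19:34640760-34640838, plus strand): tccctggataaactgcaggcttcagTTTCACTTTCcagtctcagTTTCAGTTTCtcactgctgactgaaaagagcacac
Ifit3 (chr19:34583348-34583441, plus strand): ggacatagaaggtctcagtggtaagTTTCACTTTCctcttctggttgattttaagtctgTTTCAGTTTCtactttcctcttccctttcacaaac
Isg15 (chr4:156200850-156200921, minus strand): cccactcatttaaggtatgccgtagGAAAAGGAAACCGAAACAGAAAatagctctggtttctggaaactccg
Cxcl10 (chr5:92349068-92349127, minus strand): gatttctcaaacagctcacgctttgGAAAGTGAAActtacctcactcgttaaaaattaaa
The first match begins 120 bases before the RefSeq start site in Rsad2, 104 in Ifit1, 156 in Ifit3, 78 in Isg15 and 213 in Cxcl10. Ifit1 and Ifit3 each hold 2 separate cores, and Isg15 holds 3 that overlap. Windows of Oasl2, Irf7 and Psmb8 had no match, although all 3 genes rose by more than 8-fold. A match is a description of the letters and no site of binding was measured.

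Chemokines and cytokines were mixed, with 12 of 24 tested genes higher (50%) and 5 lower (20.8%), and a median of 0.87. Among all genes tested 25.9% were higher and 27.5% lower. Cxcl10, which draws T cells, had 19.1, 12.4 and 12.7 CPM with the siRNA and 0.458, 0.254 and 0.533 CPM with scramble. Ccl7, a monocyte chemokine, had 60.8, 48.4 and 56.1 CPM with the siRNA and 3.99, 3.81 and 3.92 CPM with scramble. Ccl2 had 66.2, 60.7 and 57.1 CPM with the siRNA and 24.3, 22.5 and 24.7 CPM with scramble. All 3 were separated, and for Ccl7 and Ccl2 the scramble libraries lay close together, replicate 1 included. Cxcl1 rose by 3.18 ± 0.36 and the abundant Cxcl12 by 0.64 ± 0.025, while Cxcl2 had 38 counts in siRNA cells and 0 in scramble cells (at least 13.6-fold higher, taking 3 counts over the 3 libraries as the floor). Ccl9 (-1.43 ± 0.13), Il6 (-0.82 ± 0.13) and Csf1 (-0.44 ± 0.034) fell. Of 21 NF-κB subunits and targets, 13 rose (61.9%) and 4 fell (19%), with a median of 0.38. Vcam1, a leukocyte adhesion molecule, had 953, 915 and 894 CPM with the siRNA and 213, 232 and 212 CPM with scramble (2.07 ± 0.048). Relb, an NF-κB subunit, rose by 0.91 ± 0.12. Ptgs2, cyclooxygenase 2, fell (-0.97 ± 0.059), as did Sod2 (-0.68 ± 0.051) and the adhesion molecule Icam1 (-0.48 ± 0.065).

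Among genes outside the interferon and antigen presentation lists, some of the largest increases were of genes also known to respond to interferon. Cd274, the immune checkpoint ligand PD-L1, had 30.8, 23.9 and 24.5 CPM with the siRNA and 1.33, 1.32 and 1.55 CPM with scramble (4.23 ± 0.22). Apod, the lipid carrier apolipoprotein D, had 23.7, 25.2 and 32.7 CPM with the siRNA and 1.51, 1.83 and 1.84 CPM with scramble (3.98 ± 0.21). Megf10, an engulfment receptor, had 15.5, 16.0 and 14.4 CPM with the siRNA and 1.88, 2.23 and 2.32 CPM with scramble (2.84 ± 0.11). In all 3 genes scramble replicate 1 lay near the other scramble libraries. Parp14 rose by 3.94 ± 0.16, Rnf213, a large ubiquitin ligase linked to moyamoya disease of the arteries, by 2.93 ± 0.13 and Mpeg1, the pore-forming perforin 2, by 3.68 ± 0.26. Mamdc2, Tent5a and Plekha4 rose by 3.34, 3.31 and 2.96. The remaining names of that group were Iigp1c, Mndal, Rtp4, Parp12, Trim30a and Sp110.

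**Figure D3:**
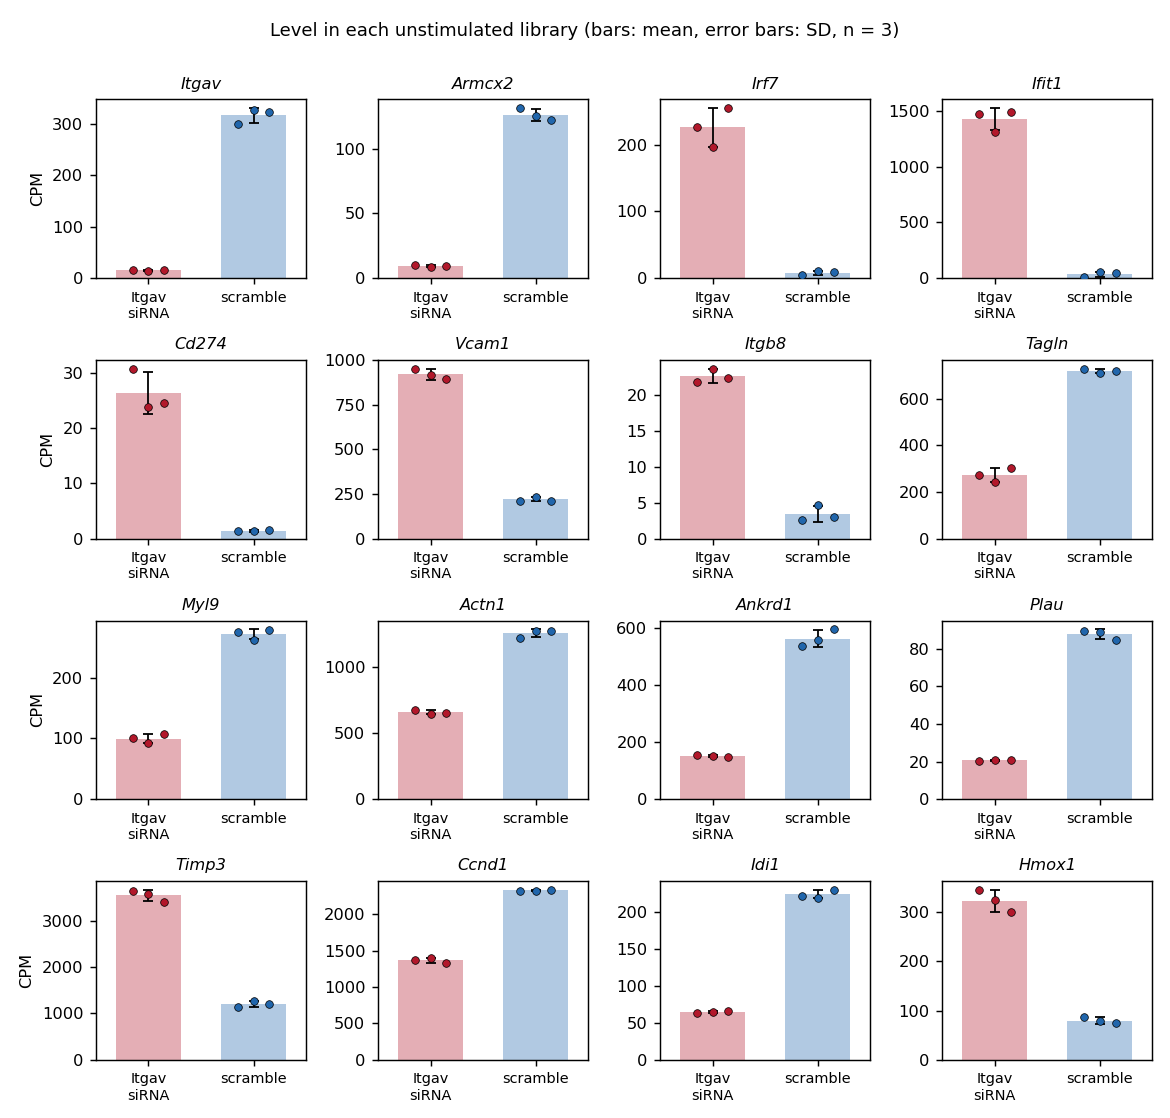
Level of 16 genes in each unstimulated library, chosen to show the gene groups described in the text. Each panel is a gene and the vertical axis is CPM from 0. Points are libraries, bars are means and error bars SDs of 3 libraries, with the Itgav siRNA on the left and scramble on the right. In all 16 panels the 2 groups do not overlap, which the choice of called genes largely fixes. Among all genes tested, 61.4% did not overlap in either direction.

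Integrin β chains rose, and α chains moved both ways. All 6 tested β chains, of 8 listed, were higher (median 0.83). Of 12 tested α chains other than Itgav 5 were higher (41.7%) and 3 lower (25%), with a median of 0.025. Among all genes tested 25.9% were higher and 27.5% lower. Itgb8, which with αV activates latent TGF-β, had 21.7, 23.6 and 22.2 CPM in siRNA cells and 2.61, 4.67 and 3.05 CPM in scramble cells (2.72 ± 0.14). Itgb5 had 621, 592 and 614 CPM in siRNA cells and 319, 328 and 326 CPM in scramble cells (0.91 ± 0.039). Itgb3 had 51.9, 50.4 and 50.4 CPM in siRNA cells and 32.4, 29.2 and 29.0 CPM in scramble cells (0.75 ± 0.066). These partners of αV, Itgb8, Itgb5 and Itgb3, were thus higher in every siRNA library than in any scramble library. Itgb2, also called higher, was near the floor at 0.048 to 0.78 CPM. Itgb1, which pairs with many α chains, rose by 0.19 ± 0.036, and Itgb4, at 1.60 to 3.97 CPM, by 0.60 ± 0.22 (adjusted p = 0.0248). Itgb4 lost its call without siRNA replicate 1, scramble replicate 2 or scramble replicate 3 (adjusted p = 0.0879, 0.0638 and 0.146). Itga9 rose by 0.94 ± 0.12, Itga8, an RGD-binding chain of smooth muscle, by 0.65 ± 0.13 and Itga2 by 0.58 ± 0.095. Itga3, a laminin receptor chain, fell (-0.53 ± 0.045). Itga5, the fibronectin receptor chain, did not pass the test, with 88.4 ± 3.76 CPM in siRNA cells and 88.6 ± 0.527 CPM in scramble cells (-0.0026 ± 0.052).

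Of the ligands of αV integrins, 8 of 18 tested genes were higher (44.4%) and 7 lower (38.9%), against 25.9% and 27.5% of all genes tested. Tgfbi, a matrix protein bound by integrins, had 8.96, 8.44 and 7.15 CPM with the siRNA and 1.42, 1.52 and 1.55 CPM with scramble (2.45 ± 0.15). Postn, periostin, rose by 0.96 ± 0.11 and Fn1, fibronectin, by 0.63 ± 0.077. Spp1, osteopontin, had 101, 86.0 and 91.0 CPM with the siRNA and 74.6, 73.5 and 80.0 CPM with scramble, a small increase (0.29 ± 0.072). Npnt, nephronectin, had 134, 134 and 129.9 CPM with the siRNA and 270.3, 274 and 277 CPM with scramble (-1.05 ± 0.045). The matricellular Ccn1 (-0.71 ± 0.040) and Tnc, tenascin C (-0.46 ± 0.048), fell as well.

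Focal adhesion genes were lower for 22 of 32 (68.8%) and higher for 4 (12.5%), with a median of -0.42. Among all genes tested 27.5% were lower and 25.9% higher. Fermt2, the kindlin that activates integrins, had 72.7, 74.0 and 77.3 CPM with the siRNA and 165, 175 and 176 CPM with scramble. Actn1, an α-actinin, had 676, 646 and 655 CPM with the siRNA and 1225, 1274 and 1279 CPM with scramble. Actn4, its paralog, had 312, 292 and 309.5 CPM with the siRNA and 638, 634 and 632 CPM with scramble. No library crossed between groups for these genes, which changed by -1.20 ± 0.041, -0.93 ± 0.034 and -1.06 ± 0.036. The adaptors Parva (-0.76 ± 0.037) and Vcl, vinculin (-0.72 ± 0.062), the talin Tln2 (-0.83 ± 0.056), the kinase Ptk2, known as FAK (-0.62 ± 0.043), and Tns1, a tensin (-0.55 ± 0.035), fell too. Tns2 (0.33 ± 0.053), Kank2 (0.29 ± 0.036) and Bcar1 (0.29 ± 0.056) were among the genes that rose.

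Targets and members of the YAP and TEAD pathway were lower for 17 of 26 genes (65.4%) and higher for 7 (26.9%), with a median of -0.28. Among all genes tested 27.5% were lower and 25.9% higher, so the share higher was near that of all genes. Ankrd1, a target often used as a readout of YAP, had 154, 149.7 and 146 CPM with the siRNA and 536, 557 and 596 CPM with scramble (-1.91 ± 0.048). Ccn2 fell by 0.29 on the log2 scale, while Myof changed by -0.93 ± 0.054 and Igfbp3 by -0.87 ± 0.049. Of the coactivator genes, Wwtr1 (TAZ) had 166, 169 and 159 CPM in siRNA cells and 254, 261 and 272 CPM in scramble cells (-0.67 ± 0.044), and Yap1 rose by 0.20 ± 0.057 (adjusted p = 0.00533). Axl, a receptor kinase gene that YAP is known to raise, went against the list, with 1102, 1078 and 1089 CPM in siRNA cells and 535, 547 and 528 CPM in scramble cells (1.02 ± 0.032). The TEAD motif GGAATG, searched on both strands, was in the promoter window of 7 of the 12 lower genes that had a window (58.3%), against 16.6% of all genes with a window. Over all genes the motif was in 14.8% of those called lower and 15.3% of those tested but not called. The list was drawn up from the pathway, and whether the motif goes with the decrease was not tested. A stretch of the Ankrd1 promoter is shown, since its fold change was the lowest of the list; it begins 25 bases before the first of 2 matches, which lies 210 bases before the RefSeq start site; GENCODE M21 has the gene begin upstream of the stretch, at 36120099, and the match is in capitals.
Ankrd1 (chr19:36120024-36120079, minus strand): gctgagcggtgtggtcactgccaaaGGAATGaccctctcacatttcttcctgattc

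Contractile smooth muscle genes were lower for 16 of 24 tested genes (66.7%) and higher for 4 (16.7%), with a median of -0.45. Among all genes tested 27.5% were lower and 25.9% higher. Tagln, which encodes SM22α, had 273, 244 and 301 CPM with the siRNA and 729.9, 711 and 718 CPM with scramble. Myl9, the regulatory light chain of myosin, had 101, 92.6 and 107 CPM with the siRNA and 276, 263 and 278 CPM with scramble. Acta2, smooth muscle α-actin, had 518, 505 and 549.5 CPM with the siRNA and 1035, 1060 and 1100 CPM with scramble. The 3 genes changed by -1.40 ± 0.056, -1.45 ± 0.081 and -1.02 ± 0.041, with no overlap. Mcam (-1.42 ± 0.058), Tpm2, a tropomyosin (-0.95 ± 0.069), Cnn1, calponin (-0.98 ± 0.13), Fhl2 (-0.98 ± 0.073) and Ppp1r14a, an inhibitor of myosin phosphatase (-2.08 ± 0.18), also fell. The members that rose were Csrp1 (0.66 ± 0.046), Synpo2 (0.53 ± 0.060), Mylk, the myosin light chain kinase (0.40 ± 0.062), and Itga8. Myh11, the smooth muscle myosin heavy chain, did not pass the test (-0.20 ± 0.11, adjusted p = 0.14).

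Of 26 regulators of smooth muscle identity 9 were higher (34.6%) and 10 lower (38.5%), near the 25.9% and 27.5% of all genes tested. Srf, the factor that binds CArG boxes in contractile genes, had 10.5, 10.3 and 11.3 CPM with the siRNA and 24.3, 23.3 and 25.8 CPM with scramble (-1.19 ± 0.072). Its coactivator gene Myocd, at 1.45 to 2.94 CPM, changed by -0.70 ± 0.20, and Fhl1 by -1.35 ± 0.040. Prrx1, a homeobox factor of mesenchymal cells, rose by 0.88 ± 0.052 and Notch1 by 0.99 ± 0.13, while Klf4 rose only slightly (0.16 ± 0.044). The CArG box (CC, 6 bases of A or T, GG) was in the windows of 4 of 22 lower genes of the contractile and regulator lists (18.2%), against 1.81% of all genes with a window. Over all genes the box was in 1.79% of those called lower and 1.46% of those tested but not called. Windows of Acta2 and Cnn1 had no match. Fhl2 and Fhl1, the latter also lower by more than 2-fold, had a match too and are not shown. The stretches of Srf and Myl9 are shown as examples from genes that fell by more than 2-fold, with the boxes in capitals.
Srf (chr17:46556190-46556269, minus strand): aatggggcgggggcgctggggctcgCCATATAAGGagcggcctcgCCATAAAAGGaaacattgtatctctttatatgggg
Myl9 (chr2:156775278-156775337, plus strand): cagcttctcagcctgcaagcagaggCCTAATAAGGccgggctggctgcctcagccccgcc
The first box lies 82 bases before the RefSeq start site in Srf and 161 in Myl9. Genes known from modulated, less contractile smooth muscle were higher for 11 of 18 and lower for 5 (median 0.28). Mgp, the matrix Gla protein that limits calcification, had 699, 679 and 693 CPM with the siRNA and 198, 186 and 186 CPM with scramble (1.86 ± 0.062), while S100a4 fell (-0.72 ± 0.064).

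**Figure D4:**
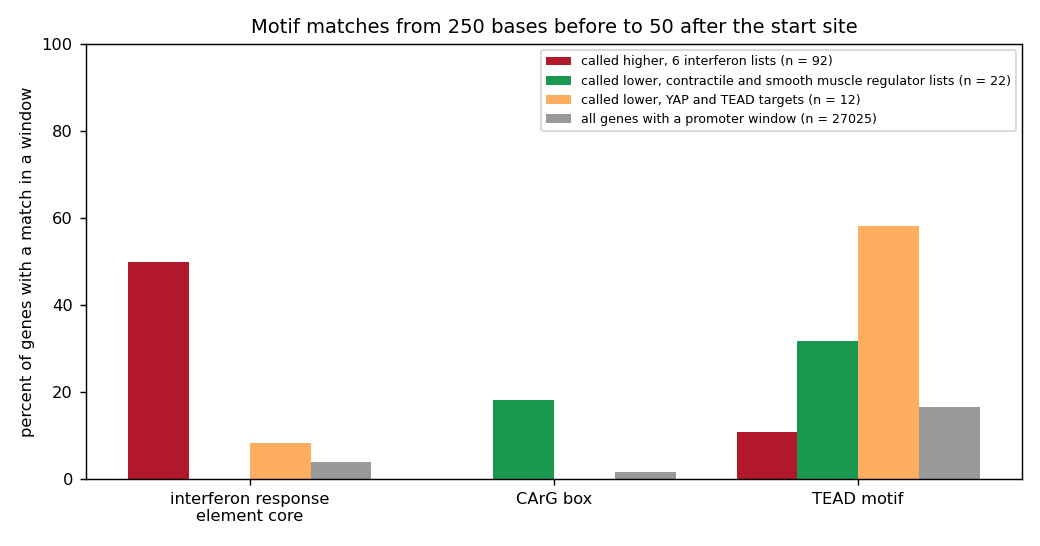
Share of genes with a motif match between 250 bases before and 50 after a start site. The lists were drawn up from known genes of each pathway, and a link between a motif and the change was not tested. The vertical axis is the percent of genes with a window that hold the motif, colours are gene sets with their number of genes; the interferon core reached 50% of the interferon-list genes called higher against 3.99% of all genes, the CArG box 18.2% of the contractile and regulator genes called lower against 1.81%, and the TEAD motif 58.3% of the YAP and TEAD genes called lower against 16.6%.

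Matrix genes gave counts in both directions. Among all genes tested 25.9% were higher and 27.5% lower, and counts of a list near those shares, here and in the paragraphs that follow, are given as a description of its members only. Fibrillar collagens had 6 of 11 genes higher and 3 lower, but only 3 were called higher without siRNA replicate 3 or without scramble replicate 3. Col3a1, a collagen of the arterial wall, had 554, 535 and 519.5 CPM with the siRNA and 348, 371 and 359 CPM with scramble (0.58 ± 0.062). Col1a1 differed little (-0.16 ± 0.058, adjusted p = 0.0276) and lost its call when any library except scramble replicate 1 was left out, with an adjusted p up to 0.129. The cartilage collagens Col2a1 (-1.13 ± 0.069) and Col11a1 (-0.92 ± 0.066) fell. In basement membranes 10 of 29 genes rose and 12 fell: Agrn rose by 1.22 ± 0.086, while Nid1 (-0.64 ± 0.075), Nid2 (-1.03 ± 0.091) and Sparc (-0.52 ± 0.028) fell. Elastic fibre genes had 8 of 23 higher and 7 lower, with Eln, elastin, at 374, 407 and 416 CPM with the siRNA and 346, 364 and 346 CPM with scramble (0.18 ± 0.050). Lox, which crosslinks collagen and elastin, fell (-0.54 ± 0.065), and Ltbp1, which anchors latent TGF-β to the matrix, rose (0.73 ± 0.044). Among proteoglycans, 7 of 20 rose and 5 fell, and Gpc1, glypican 1, rose by 1.71 ± 0.085.

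Of 33 matrix proteases and inhibitors 11 were higher and 11 lower, 33.3% each, near the 25.9% and 27.5% of all genes tested. Timp3, a matrix-bound inhibitor of metalloproteases, had 3645, 3584 and 3411 CPM with the siRNA and 1143, 1276 and 1206 CPM with scramble (1.55 ± 0.048). Plau, urokinase, had 20.4, 20.7 and 20.7 CPM with the siRNA and 89.4, 89.0 and 84.5 CPM with scramble (-2.09 ± 0.069). Plat, the tissue plasminogen activator, moved the other way, with 117, 116 and 108 CPM with the siRNA and 56.4, 57.3 and 54.5 CPM with scramble (1.02 ± 0.049). Mmp13, a collagenase, averaged 6.22 ± 0.487 CPM with the siRNA and 0.712 ± 0.241 CPM with scramble (3.12 ± 0.25). Adam19 rose by 1.14 ± 0.062 while Adamts1 fell (-0.71 ± 0.039).

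Genes of TGF-β signalling were counted by role. Of 20 ligands, latent binders and receptors, 9 were higher and 6 lower, whereas of 32 SMADs and TGF-β targets 6 were higher and 17 lower (median -0.16). Tgfb1 had 28.9, 30.2 and 27.6 CPM with the siRNA and 17.2, 15.3 and 13.7 CPM with scramble (0.91 ± 0.069). Tgfb2 moved the opposite way, with 176, 165 and 165 CPM with the siRNA and 272, 305 and 298 CPM with scramble (-0.79 ± 0.053). The receptors Tgfbr1 (0.67 ± 0.055), Tgfbr2 (0.42 ± 0.051) and Tgfbr3 (1.01 ± 0.082) and Smad3 (0.54 ± 0.050) rose. Target genes that fell included Inhba, an activin subunit (-1.0 ± 0.064), Nox4, an NADPH oxidase (-0.68 ± 0.064), and Skil, a SMAD repressor (-0.57 ± 0.080). In the BMP branch 11 of 23 genes fell and 6 rose. Grem1, a secreted BMP antagonist, had 1286, 1250 and 1267 CPM with the siRNA and 478, 503 and 513 CPM with scramble (1.35 ± 0.043), and the BMP-responsive Id1 (-0.47 ± 0.062), Id2 (-0.74 ± 0.064) and Id4 (-1.09 ± 0.091) fell.

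Cell cycle genes were mostly lower, by small amounts. Of 30 genes of G2/M and mitosis 27 fell and none rose (median -0.48), and of 30 genes of G1/S and DNA replication 20 fell and 1 rose (median -0.39). Mki67, a proliferation marker, had 113, 134 and 108 CPM with the siRNA and 158, 168 and 171 CPM with scramble (-0.49 ± 0.067). Mad2l1, of the spindle checkpoint, had 31.1, 30.5 and 26.1 CPM with the siRNA and 59.0, 60.1 and 58.0 CPM with scramble (-1.01 ± 0.078). Ccnd1, cyclin D1, had 1371, 1406 and 1332 CPM with the siRNA and 2322, 2326 and 2339 CPM with scramble (-0.77 ± 0.035). None of these overlapped between groups. Cdk1 (-0.56 ± 0.057), Top2a (-0.53 ± 0.083), Mcm5 (-0.67 ± 0.074) and Rrm2 (-0.58 ± 0.068) fell, and the replication helicase subunit Mcm6 was the gene that rose (0.28 ± 0.072). In bulk RNA, fewer cells of a kind and less RNA per cell cannot be told apart.

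Of 34 apoptosis and p53 genes 11 were higher and 11 lower, 32.4% each, near the shares of all genes. Xaf1, an interferon-responsive antagonist of XIAP, rose by 2.65 ± 0.15, Casp4, a caspase that senses bacterial lipid, by 1.86 ± 0.17, its substrate Gsdmd by 1.78 ± 0.16 and Mlkl, the effector of necroptosis, by 0.79 ± 0.070. Bcl2l11, the pro-apoptotic Bim, rose by 1.39 ± 0.12, and the survival gene Mcl1 fell (-0.82 ± 0.041). ERK targets had 15 of 31 higher and 5 lower. The immediate early gene Egr1 had 51.9, 47.6 and 46.7 CPM with the siRNA and 22.7, 26.5 and 21.7 CPM with scramble (1.04 ± 0.080), while the feedback inhibitors Dusp1 (-0.98 ± 0.091) and Spry1 (-0.90 ± 0.10) fell. Receptor tyrosine kinases and their ligands had 20 of 46 higher and 16 lower: Angpt2 (1.36 ± 0.046), Kitl (1.57 ± 0.059) and Fgfr1 (1.10 ± 0.042) rose, and Fgf18 (-1.54 ± 0.15), Igf1 (-1.52 ± 0.10) and Bdnf (-0.89 ± 0.044) fell.

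Genes of cholesterol and fatty acid synthesis were lower for 24 of 31 and higher for 3 (median -0.48). Idi1, isopentenyl-diphosphate isomerase, had 63.0, 64.5 and 66.6 CPM with the siRNA and 222, 219.6 and 230.3 CPM with scramble. Sc5d, a late sterol desaturase, had 133, 125 and 128 CPM with the siRNA and 314, 318 and 317 CPM with scramble. Hmgcs1, HMG-CoA synthase, had 149, 159 and 158 CPM with the siRNA and 352, 354 and 347 CPM with scramble. Replicates lay close together in both groups, and the log2 fold changes were -1.79 ± 0.062, -1.30 ± 0.045 and -1.18 ± 0.043. Lss (-1.46 ± 0.061), Msmo1 (-1.22 ± 0.040), the desaturase Scd2 (-1.0 ± 0.036) and Srebf2, the regulator of the pathway (-0.35 ± 0.037), fell. Insig1, which retains SREBP in the endoplasmic reticulum, rose, with 211, 239 and 222 CPM in siRNA cells and 116, 108 and 107 CPM in scramble cells (1.02 ± 0.047). Ch25h, an interferon-responsive cholesterol hydroxylase, rose by 1.24 ± 0.27, and the sterol exporter Abca1 by 0.30 ± 0.080.

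Genes of glutathione and NRF2 were more often higher, with 17 of 32 higher and 9 lower (median 0.28). Hmox1, heme oxygenase 1, had 345, 325 and 299.5 CPM with the siRNA and 86.6, 78.0 and 74.0 CPM with scramble (2.02 ± 0.065). Slc7a11, the cystine importer, had 29.0, 29.0 and 26.6 CPM with the siRNA and 3.44, 5.33 and 3.68 CPM with scramble (2.77 ± 0.16). Gclc (1.09 ± 0.059), Srxn1 (1.23 ± 0.056) and Gstm1 (1.30 ± 0.048) rose, Nqo1 only slightly (0.25 ± 0.075), and Cat, catalase, fell (-1.03 ± 0.048). Ces1d, a carboxylesterase, had 408 counts in siRNA cells and 19 in scramble cells (ratio 23.1, 14.6 to 38.7). In the ATF4 and endoplasmic reticulum stress list 12 of 31 rose and 14 fell: Ddit3, known as CHOP, rose by 0.77 ± 0.093 and Trib3 by 1.27 ± 0.17, while the serine synthesis genes Psat1 (-1.47 ± 0.072) and Phgdh (-0.65 ± 0.069) fell.

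Lysosomal genes rose for 21 of 29 and fell for 4 (median 0.39), with Gaa (0.94 ± 0.061), Lgmn (0.85 ± 0.045), Hexa (0.81 ± 0.052) and Ctso (1.0 ± 0.085) among the named ones. Of 31 glycolysis and hypoxia genes 11 were higher and 11 lower: Ndrg1 rose by 1.82 ± 0.087, while the vasodilator peptide gene Adm (-1.30 ± 0.077) and Ldha, lactate dehydrogenase (-0.66 ± 0.048), fell. Complement genes had 7 of 15 higher and 4 lower. C4b, a complement component, had 106, 101 and 109 CPM with the siRNA and 24.6, 32.5 and 26.1 CPM with scramble (1.93 ± 0.10), C3 rose by 1.34 ± 0.081, and the receptor C3ar1 fell (-1.90 ± 0.10). Of 44 genes of calcium handling and ion channels 17 rose and 11 fell, with the natriuretic peptide clearance receptor Npr3 higher (1.06 ± 0.055) and Prkg1, the cGMP-dependent kinase that relaxes smooth muscle, lower (-1.08 ± 0.10). Osteochondrogenic genes had 6 of 15 higher and 3 lower. Of 16 genes of the small RNA machinery, through which an siRNA acts, 4 rose (25%) and 6 fell (37.5%), none by 2-fold or more. Eri1, an exonuclease that trims small RNAs, changed by -0.88 ± 0.062, Prkra, a partner of Dicer, by -0.63 ± 0.084 and Tnrc6c, a GW182 protein of the silencing complex, by 0.53 ± 0.075. Ago2, the slicing Argonaute, changed by 0.26 ± 0.077 and Dicer1 by 0.28 ± 0.069.

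**Figure D5:**
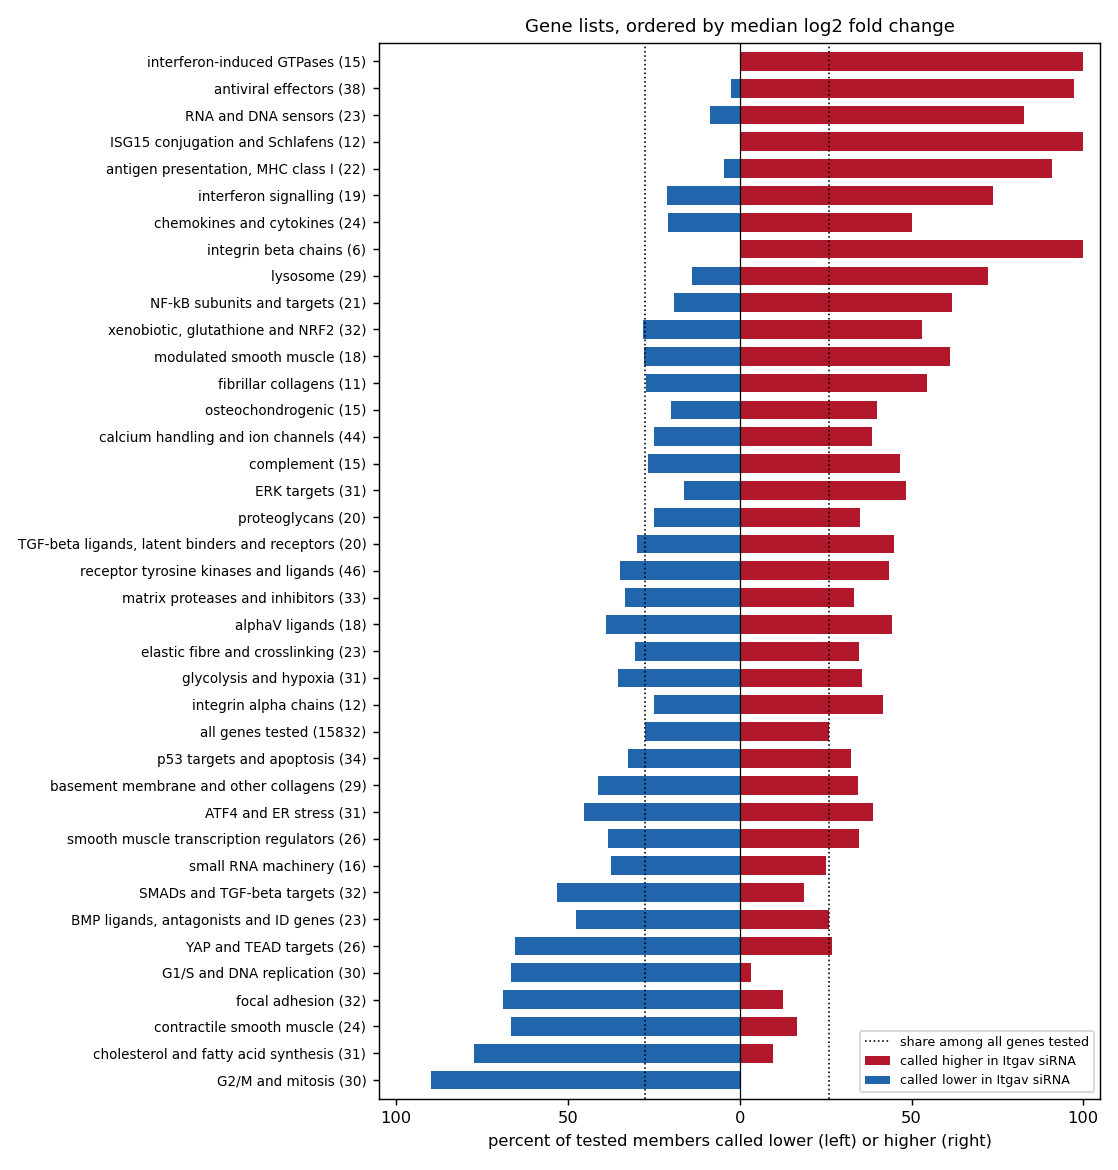
Gene lists with at least 5 tested members, and all genes, ordered from the highest median log2 fold change at the top. Each row is a list with its number of tested genes; bars give the percent called higher (red, right) and lower (blue, left) with the Itgav siRNA against scramble, and dotted lines mark the 25.9% higher and 27.5% lower among all genes tested. All tested interferon-induced GTPases and integrin β chains were higher, and 90% of G2/M genes and 77.4% of cholesterol and fatty acid synthesis genes were lower.

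Markers of smooth muscle and of other cell types were read to check the cells. All 8 smooth muscle markers were detected in both groups and 6 fell, and their summed level was 991.3 to 1109 CPM in siRNA cells and 2081 to 2131 CPM in scramble cells. The defining marker Myh11 was present but not abundant, at 348 to 419 counts in the siRNA libraries and 450 to 510 counts in the scramble libraries. Of 10 adventitial fibroblast markers 6 rose and 1 fell, and their sum was 1005 to 1031 CPM in siRNA cells and 811.0 to 878.2 CPM in scramble cells. Most of that sum was Gsn alone, with 910.8, 885.3 and 887.3 CPM in siRNA cells and 743.7, 687.9 and 683.3 CPM in scramble cells. The sum therefore says little about the other markers. Scara5 (1.89 ± 0.16) and Pdgfra (1.02 ± 0.10) rose, and Cd34 fell (-0.79 ± 0.048). Of 6 mesothelial markers 3 fell, among them Upk1b (-1.20 ± 0.059), and their sum was 90.5 to 93.2 CPM in siRNA cells and 155.1 to 165.6 CPM in scramble cells. Of 11 endothelial markers 1 rose and 4 fell, with sums of 86.7 to 103.0 CPM in siRNA cells and 104.6 to 123.6 CPM in scramble cells. Of 10 macrophage markers 5 were tested, with sums of 19.5 to 20.9 CPM in siRNA cells and 17.6 to 20.4 CPM in scramble cells. Ptprc (CD45), the other that fell, had 1 count in siRNA cells and 12 in scramble cells, Adgre1 had 1 and 4, and Itgam 0 and 1. No lymphocyte or erythroid marker passed the filter, with 16 counts in siRNA cells and 4 in scramble cells for 8 lymphocyte markers, and 5 and 12 for 6 erythroid markers. Cd3e and Cd8a were at 0 in all 6 libraries. Of 7 adipocyte markers only Fabp4, a fatty acid carrier, was tested, and it fell (-1.97 ± 0.12), with 3.43, 3.01 and 3.01 CPM in siRNA cells and 13.1, 12.5 and 11.5 CPM in scramble cells. Plin1, Cidec and Retn were at 0 in all 6 libraries. Of 6 Schwann cell markers 3 were tested and 2 fell, S100b (-0.31 ± 0.091) and Mbp (-0.65 ± 0.13), with sums of 18.1 to 19.5 CPM in siRNA cells and 23.8 to 26.6 CPM in scramble cells, while the defining Sox10 was at 0 in all. Of 6 cardiomyocyte markers 3 were tested and 1 fell, Tnnt2 (-0.42 ± 0.091), with sums of 11.8 to 13.5 CPM in siRNA cells and 15.02 to 16.1 CPM in scramble cells. The part of marker shifts in the other results was not tested.

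The same siRNA was also compared with scramble in cells given TGF-β and in cells given PDGF-BB (7662 genes, 48.4%, and 9394 genes, 59.3%, called in either direction), with siRNA and scramble libraries of their own in the shared fit. Of the 4108 genes higher without stimulus, 2411 were also higher with TGF-β (58.7% of these and 63.3% of the 3809 higher there, which are 24.1% of genes tested) and 3122 with PDGF-BB (76% of these and 67% of the 4659 higher there, which are 29.4%). Of the 4349 lower genes, 2776 were also lower with TGF-β (63.8% of these and 72% of the 3853 lower there, which are 24.3%) and 3356 with PDGF-BB (77.2% of these and 70.9% of the 4735 lower there, which are 29.9%). The difference between effects itself passed the test for 3678 genes (23.2%) against TGF-β, with 11% of all genes above and 12.2% below 0, and for 2981 (18.8%) against PDGF-BB, with 9.32% above and 9.51% below. Itgav was reduced in all 3 settings, by log2 fold changes of -4.39 without stimulus, -4.28 with TGF-β and -3.81 with PDGF-BB. Ifit3, a named interferon gene, changed by 5.31 without stimulus and 2.99 with TGF-β, a difference of 2.32 (adjusted p = 4.5e-07), against 5.70 with PDGF-BB, where the difference of -0.39 did not pass (adjusted p = 0.28). For Acta2 the effect of -1.02 without stimulus did not differ by the test from that with TGF-β (difference 0.013, adjusted p = 0.91), and it was further from 0 with PDGF-BB (-1.66, difference 0.63, adjusted p = 1.6e-07). Of the 30 G2/M genes, 27 were lower and none higher without stimulus, against 2 lower and 5 higher with TGF-β and 23 lower and none higher with PDGF-BB. The effect without stimulus was the lower by the gene's own test for 22 of the 30 against TGF-β and for 6 against PDGF-BB, and for none was it the higher.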

How the data were processed

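The authors deposited estimated counts for 57180 genes and 149132 transcripts, made by alignment to mm10 with HISAT2 2.2.1 and quantification with StringTie 2.1.6, per the submitters' processing notes. Since no source names the strand setting of the counting, values of overlapping antisense pairs are uncertain. Of the deposited values above 0, 76.2% were whole numbers, and all were rounded before testing.

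All 18 libraries were fitted together in edgeR 4.0.16 (6 group means, TMM factors 0.925 to 1.07, filterByExpr with a minimum count of 10, quasi-likelihood F test, 12 residual degrees of freedom, biological coefficient of variation 6.01%). P-values were adjusted by Benjamini-Hochberg over the 15832 genes tested, with calls made below 0.05. A standard error is the size of the log2 fold change over the square root of F. CPM values use TMM-scaled totals of tested genes. Totals per library were 17705072 to 21592916 counts.

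On simulated data for the same contrast (15428 genes), 80.6%, 91% and 100% of genes changed 1.5-fold, 2-fold and 4-fold were recovered, and 5.24% of 191 calls were false. Far more genes were called in the data, so these rates need not hold there.

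The comparison, its members, the gene lists and the naming rule were chosen with earlier results of these data known. The rule names Itgav, a panel of 18 genes, the 10 largest increases and 15 largest decreases, the 15 largest increases outside the interferon lists, and from each list with 3 or more calls up to 6 members with the smallest p plus the largest on its smaller side. Other list members were named for their role after their values were seen, and a few genes are not reported here. Promoters are RefSeq windows of GRCm38.p6, gene coordinates GENCODE M21. Alternatives were 2 other low-count filters, DESeq2 size factors, DESeq2 1.42.0, a replicate block, the 6 libraries alone, and leaving out each library. Python 3.11.15, R 4.3.3 and matplotlib 3.10.9 were used.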

Additional observations from a re-analysis of the deposited data

Results flagged for a closer look

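For the panel genes reported here, the effect of the Itgav siRNA without stimulus was tested against its effect in cells given TGF-β and in cells given PDGF-BB, in the fit over all genes. The differences below passed edgeR's test with adjusted p-values of 1.7e-13 (Spp1 against TGF-β) to 0.016 (Itgb1 against PDGF-BB) over all 15832 genes, and the background of such differences was 23.2% of all genes for TGF-β and 18.8% for PDGF-BB. Each value is the log2 effect without stimulus minus that in the other medium, so a negative value is a lower or more negative effect without stimulus.

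The reduction of Itgav itself was deeper without stimulus than with PDGF-BB (difference -0.577). Among β chains, Itgb1 differed by -0.25 from TGF-β and -0.18 from PDGF-BB, Itgb3 by -0.435 from PDGF-BB, Itgb5 by 0.527 from PDGF-BB and Itgb8 by -1.05 from PDGF-BB. Itga5, with no called change in unstimulated cells, differed by -0.545 from TGF-β and -0.477 from PDGF-BB.

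Of the contractile genes, Acta2 differed by 0.634 from PDGF-BB, Myh11 by 1.75 from TGF-β, and Tagln by -0.275 from TGF-β and 0.783 from PDGF-BB. Myh11 had a log2 fold change of -0.20 without stimulus, -1.95 with TGF-β and -0.55 with PDGF-BB.

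Of the matrix genes, Col1a1 differed by -0.552, Fn1 by -0.381 and Eln by -0.377 from TGF-β, and Eln by 0.967 from PDGF-BB. Spp1 differed by -2.44 from TGF-β and -1.49 from PDGF-BB, with an effect of 0.29 without stimulus, 2.72 with TGF-β and 1.77 with PDGF-BB.

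Mki67 differed by -0.43 from TGF-β. The interferon-regulated Rsad2 and Ifit3 differed by 3.75 and 2.32 from TGF-β, and neither difference from PDGF-BB passed the test.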

How the results depend on the processing

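The alternatives called 7732 to 8687 genes, against 8457 as reported, and 1215 to 1822 genes at 2-fold or more, against 1644, with 48.0% to 49.5% of called genes higher in the siRNA cells. The lowest 2-fold count came with a mean of at least 1 CPM, which tests fewer genes. The replicate numbers did not pair the libraries: deviations of same-numbered libraries correlated at -0.0031, -0.0025 and -0.022, and with the replicate block 8582 genes were called. Without each library in turn, 7732 to 7911 genes were called. Of 358 genes followed, 348 kept direction and side of the threshold in every alternative run and 10 did not. Itga5, not called in any of them, changed sign around 0: the Itga5 log2 fold change was -0.0026 as reported, 0.0121 with a mean of at least 1 CPM, 0.00888 with the 6 libraries alone, and -0.0212 to 0.0372 with a library left out. The other 9 (Col1a1, Col5a3, Gdf5, Irf3, Itgb4, Cd14, Kdr, Msln and Ptprc) lost their call in some alternatives, and the cause was not tested. Depth limits the interferons, Ptprc and other genes with few counts.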
